A study of Sus scrofa with 8 samples.

Results

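NR6A1, VRTN, LIN28A, LIN28B, GDF11, HMGA2, IGF2BP1 and PRTG are 8 genes chosen by name as developmental timing and vertebral number genes. They were chosen with earlier results of these data known. By gene symbol, 7 of them were found among the 21301 genes measured, and HMGA2 was not analysed here. They were followed in 8 single-cell RNA-seq libraries of pig embryos, with 1 library for each of 4 stages and 2 breeds. Libraries labelled ZZ are of Tibetan pigs, and those labelled DZ of a Duroc by Tibetan cross. Embryonic day (E) 16, E18 and E21 libraries came from dissected somites and E28 libraries from the myotome, and each library pooled 5 embryos of 1 sow. Neither the labels nor the paper name a transgene or a treatment of these animals. By design the groups differed in breed, stage and, at E28, tissue, and each was also its own pool.

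LIN28A and LIN28B are RNA-binding proteins that block the maturation of let-7, a family of microRNAs that rises as tissues differentiate and that represses mRNAs such as those of LIN28B, HMGA2 and IGF2BP1. NR6A1 is an orphan nuclear receptor of the early embryo, and variants at NR6A1 and VRTN are known in pigs for their association with the number of vertebrae. GDF11, a ligand of the TGF-beta family, is known from mouse embryos for ending trunk formation and starting that of the tail. IGF2BP1 is an mRNA-binding protein of embryonic cells, and PRTG is a cell-surface receptor related to DCC and neogenin that is known from the early neural tube and mesoderm.

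In the RefSeq annotation of Sscrofa11.1, NR6A1 (chr1:265320597-265570941, minus strand), PRTG (chr1:116132269-116275678, plus strand) and LIN28B (chr1:71173291-71296131, plus strand) lie on the same chromosome. GDF11 lies at chr5:21191322-21199024, LIN28A at chr6:83806178-83818550, VRTN at chr7:97614707-97624273 and IGF2BP1 at chr12:25196955-25244660, all on the plus strand. Since let-7 binds 3′ UTRs through its seed, its sequence is shown with the seed (bases 2 to 8) in capitals, followed by the 8-base matches in the members' 3′ UTRs, where capitals mark the complement of the seed and the A after it. All sequences are written 5′ to 3′ and come from RefSeq for Sscrofa11.1.
let-7a: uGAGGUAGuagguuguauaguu
NR6A1, chr1:265325294-265325323, minus strand: tccgtaatgttgacaaagatgaCTACCTCA
NR6A1, chr1:265324331-265324360, minus strand: ggaagggaggggcggctttaaaCTACCTCA
PRTG, chr1:116269032-116269061, plus strand: ggaaagcccttttgctgactatCTACCTCA
PRTG, chr1:116272844-116272873, plus strand: gctagaatattgagatagggttCTACCTCA
LIN28B, chr1:71295238-71295267, plus strand: tttctctccctggttgggacgtCTACCTCA
IGF2BP1, chr12:25244585-25244614, plus strand: gtaatgctgtgcgcgaagtaaaCTACCTCA

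The seed GAGGUAG is shared by 10 of the 395 mature microRNAs of the annotation, which are let-7 members and miR-98. Its 7-base complement CTACCTC was searched on the transcript strand in the longest annotated 3′ UTR of each of 18749 genes, and 8.33% of these held it. NR6A1 held 5 matches in 5092 bases, whereas 23.8% of the 1422 genes with a 3′ UTR within 25% of that length held any and 0.141% held as many. PRTG held 4 matches in 6896 bases, against 29.3% of 796 genes of like length with any and 0.503% with as many. LIN28B and IGF2BP1 each held 1 match, which is found in 5.95% and 9.62% of genes of like length. The annotated 3′ UTRs of GDF11 (257 bases) and VRTN (901 bases) held none, where 2.22% and 5.83% of genes of like length held any. LIN28A has no annotated 3′ UTR in these models. These are matches of letters only, and the libraries, made from polyadenylated RNA, do not measure mature microRNAs.

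**Figure D1:**
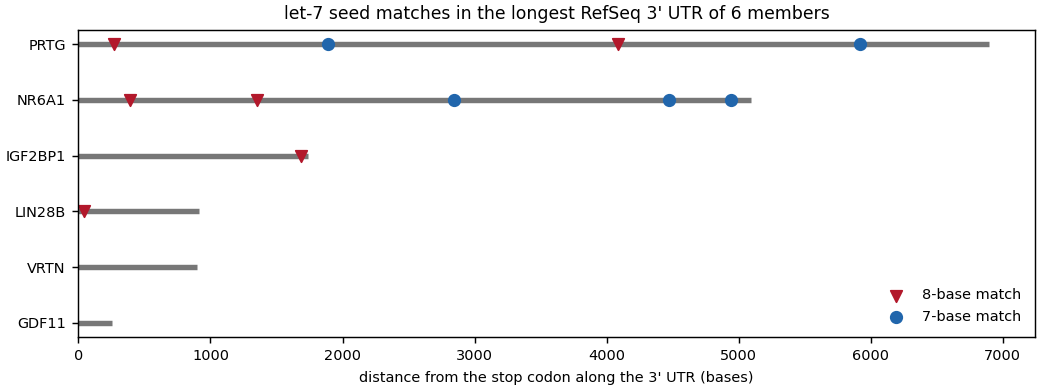
Position of let-7 seed matches (triangles, 8-base; circles, 7-base) along the longest RefSeq 3′ UTR of 6 members, in bases from the stop codon. NR6A1 has 5 matches, PRTG 4, LIN28B and IGF2BP1 1 each, and VRTN and GDF11 none.

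The deposited values are counts of unique molecular identifiers (UMIs), that is of distinct RNA molecules, per gene and cell. After filtering, 74147 of 90688 barcodes were kept as cells, with 5436 to 10956 cells and 39852689 to 57568895 UMIs per library. In E16-ZZ, 39.2% of barcodes exceeded the limit of 10% mitochondrial UMIs, against 1.05% to 9.15% in the other libraries, and the tests were repeated without it. Any pair of libraries shared 23 to 49 barcodes. Levels are CPM, a gene's UMIs relative to all UMIs of the summed cells, in ppm, and intervals on single libraries are exact 95% Poisson intervals that cover counting error only. Because 3′ ends are counted, a level was compared between samples and never between genes.

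NR6A1 and PRTG were high at E16 and E18 and low at E21 and E28. In the ZZ libraries of E16 to E28, taken in order of stage, the level of NR6A1 was 28.8, 33.5, 10.7 and 3.91 CPM, and in DZ it was 40.3, 45.1, 6.95 and 4.48 CPM. The 4 early libraries (E16 and E18) all lay above the 4 late ones (E21 and E28). PRTG measured 89.1, 142.9, 21.4 and 7.60 CPM in ZZ over the same stages, and 150.2, 214, 21.2 and 9.48 CPM in DZ. Its early and late libraries did not overlap either, and its highest value was in E18-DZ. How many of all genes lack such overlap was not counted, here or below, so these are descriptions.

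The LIN28 genes followed different courses. LIN28A stood at 8.38 CPM (ZZ) and 13.6 CPM (DZ) at E16, and at 5.33 and 6.28 CPM at E18. The E21 libraries held only 9 (ZZ) and 2 UMIs (DZ), and at E28 no UMI was found among the 85212169 of both libraries. Against a floor of 3 counts over both libraries, or 0.0352 CPM, the pooled E16 level of 11.5 CPM was 326-fold higher. The exact 95% Poisson upper limit of that 0 is 0.0433 CPM, above the floor, so 326-fold is not a lower limit. LIN28B was still measured at every stage, with 68.4, 109, 36.2 and 9.88 CPM in ZZ by stage and 82.6, 128, 37.2 and 11.8 CPM in DZ. It was highest at E18 and lowest at E28 in both breeds.

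IGF2BP1 changed less. Its level lay between 23.1 and 25.1 CPM in the 4 early libraries and was 14.2 (ZZ) and 18.2 (DZ) at E21, then 8.42 and 10.7 at E28. GDF11 took another course, with 16.2, 26.5, 44.4 and 26.4 CPM in ZZ by stage and 16.6, 25.02, 26.9 and 22.3 CPM in DZ. Its early and late libraries overlapped, and E21-ZZ stood above all others. In E21-ZZ 19.5% of the kept cells were in the neuron gate described below, against 9.93% in E21-DZ. The part of these cells in the GDF11 level was not tested. VRTN was near the limit of detection, with 3 UMIs (ZZ) and 14 UMIs (DZ) at E16, 1 and 3 at E18 and none later, and it did not pass the filter on low counts. Of its 21 UMIs, 6 were in the 100 cells of the presomitic gate of E16-DZ, where its level was 8.89 CPM (3.26 to 19.4).

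**Figure D2:**
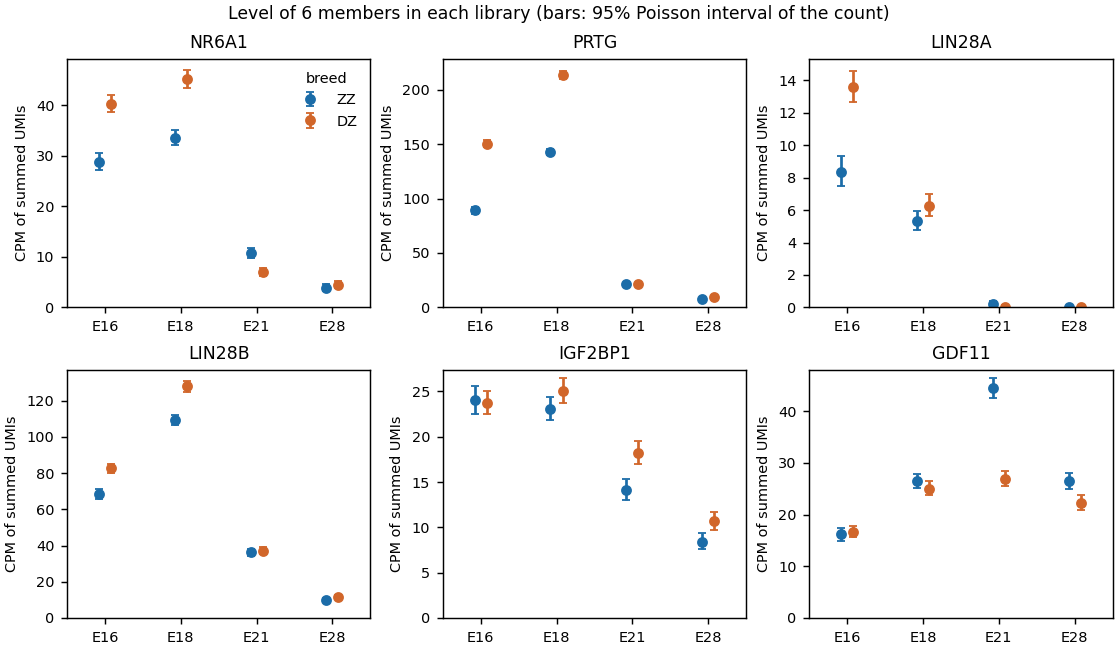
Level of 6 members in CPM of all kept cells (vertical axes from 0) by stage, with 1 point per library (blue ZZ, orange DZ) and 95% Poisson intervals of the count. NR6A1 falls from 28.8 to 45.1 CPM in the early libraries to 3.91 to 10.7 in the late ones, whereas GDF11 peaks at 44.4 in E21-ZZ.

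Adjacent stages were compared with edgeR's quasi-likelihood test on the summed UMIs, with stage and breed in 1 fit and Benjamini-Hochberg adjustment over 15119 genes, of which 6 were members. Each stage and breed is a single library, so the error is what remains after stage and breed. From E16 to E18, 1 of the 6 members passed an adjusted p of 0.05, as did 4.7% of all genes. LIN28B rose by 0.48 on the log2 scale (SE 0.10, adjusted p = 0.0445), but without any single E16 or E18 library its adjusted p was 0.164 to 0.373 (0.228 without E16-ZZ). NR6A1 differed by 0.019 (SE 0.23), PRTG by 0.42 (SE 0.16) and GDF11 by 0.48 (SE 0.17, adjusted p = 0.129), none of which passed. Without E16-ZZ these were -0.19, 0.21 and 0.30. The E16 matrices name Cell Ranger 3.1.0 and those of E18 3.0.2, which cannot be told apart from stage at this step.

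From E18 to E21, 5 of 6 members fell, beside 21.2% of all genes in either direction. PRTG fell by 3.12 on the log2 scale (SE 0.17, adjusted p = 0.000486), NR6A1 fell by 2.24 (SE 0.24, adjusted p = 0.0032) and LIN28B fell by 1.78 (SE 0.10, adjusted p = 0.000486). LIN28A passed too (adjusted p = 0.00416), but with 11 UMIs at E21 and 0 at E28 it met the filter on low counts through the early libraries alone, so its call is no separate support. IGF2BP1 fell by 0.66 (SE 0.16, adjusted p = 0.0319), a call that was lost without E18-ZZ, E18-DZ or E21-ZZ (adjusted p = 0.126 to 0.216). GDF11 differed by 0.35 (SE 0.17, adjusted p = 0.178). From E21 to E28, 4 of 6 members fell, beside 8.53% of all genes. LIN28B fell by another 1.78 (SE 0.10, adjusted p = 0.0028) and PRTG fell by 1.34 (SE 0.17, adjusted p = 0.00977). NR6A1 fell by 1.09 (SE 0.24, adjusted p = 0.0416) and IGF2BP1 fell by 0.78 (SE 0.17, adjusted p = 0.0363). Without one of 7 of the 8 libraries, all but E21-DZ, the adjusted p of NR6A1 was 0.0525 to 0.15, and that of IGF2BP1 was 0.0521 to 0.124 without any E18, E21 or E28 library. LIN28A, at 11 UMIs and then 0, did not pass (adjusted p = 0.0999), but did without E21-DZ (adjusted p = 0.0415) and by DESeq2 (adjusted p = 0.0191). Tissue changed with stage at this step and cannot be told apart from it.

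With E21 and E28 set against E16 and E18 in a fit with breed as covariate, 5 of 6 members were lower and none higher, beside 34.4% of all 14683 genes in either direction. PRTG was lower by a log2 value of -3.46 (SE 0.40, adjusted p = 0.00211) and NR6A1 by -2.69 (SE 0.33, adjusted p = 0.00236), with levels as given above. LIN28A (with the same limit), LIN28B at -2.20 (SE 0.47, adjusted p = 0.011) and IGF2BP1 at -1.10 (SE 0.24, adjusted p = 0.0113) also passed, and GDF11 at 0.31 (SE 0.21, adjusted p = 0.281) did not. The 5 calls remained without E16-ZZ, with NR6A1 at -2.77 and PRTG at -3.59. Without both E16 libraries, whose matrices name another version of Cell Ranger, LIN28B (-2.40, adjusted p = 0.0645) and IGF2BP1 (-0.996, adjusted p = 0.096) no longer passed.

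No member passed the test between the breeds. In DZ against ZZ, with stage as a factor, edgeR called 0% of all genes (918 had an unadjusted p under 0.05), whereas DESeq2 called 57 genes, none of them a member. LIN28B was higher in DZ at 4 of 4 stages, with a difference of 0.18 on the log2 scale (SE 0.070, unadjusted p = 0.0392, adjusted p = 0.81). PRTG was higher in DZ at 3 of 4 stages, by 0.40 (SE 0.12, unadjusted p = 0.0111, adjusted p = 0.792), and NR6A1 at 3 of 4, by 0.12 (SE 0.17, adjusted p = 0.927). GDF11 was lower in DZ at 3 of 4 stages (-0.27, SE 0.12, unadjusted p = 0.0529, adjusted p = 0.81). A term for a different late change in each breed passed for no gene (124 at an unadjusted p under 0.05), and among the members it ranged from -2.53 for LIN28A (SE 1.86) to 0.39 for IGF2BP1 (SE 0.48).

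The cell mix changed between stages, so the members were measured within marker gates too. A cell was in a gate if it held UMIs of at least 2 different markers of a cell class and of more of them than of any other class. No member is a marker. The 16 gates took in 54.1% of the kept cells, 39.2% of these on exactly 2 markers, and a gate was used in a library with at least 20 cells. The gated share was 33.8% (ZZ) and 34.1% (DZ) at E18, 75.4% and 69.7% at E28, and 47.4% to 57.8% at E16 and E21. At E18, cells in no gate held 12600 of the 19520 PRTG UMIs, at 203 CPM averaged over ZZ and DZ. Cells were chosen by their markers, so higher levels of a marker in its own gate are fixed in advance and are no check of it. With all 8 libraries pooled, 84 of 87 measured markers were at least 6.61 times higher in their own gate than in the other cells. The other 3, MSGN1, NKX1-2 and WNT3A, were at 0 in the presomitic gate, which held TBX6 at 182 CPM and had enough cells only in E16-ZZ, E16-DZ and E18-ZZ. The gates' shares moved with stage: the fibroblast gate held 0.873% to 5.22% of cells in the early libraries and 15.2% to 48.6% in the late ones. Marker levels were not compared by stage, so whether a gate held the same cell type early and late was not tested.

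Gates were compared within stages, since some gates lacked late libraries. Averaged over ZZ and DZ, NR6A1 at E16, E18 and E21 was highest in neurons (115.7, 96.5 and 17.7 CPM) and next in neural progenitors (95.9, 86.4 and 15.0 CPM). At E16 it followed at 65.9 CPM in the chondrogenic, 46.6 in the dermomyotome and 40.8 in the neural crest and glia gate, with 35.9 or less in each other gate. At E18 the next 6 gates lay between 42.1 (chondrogenic) and 48.9 CPM (neural crest and glia), the dermomyotome at 47.8 among them. At E28 the macrophage (16.9 CPM, from 7 UMIs) and endothelial gates (9.27) were above neurons (8.85). With 1 library a breed, the order of such neighbours was not tested. NR6A1 measured 0 to 5.14 CPM in the 3 libraries of the cardiac gate and 0 to 5.99 in the 8 of the erythroid gate. PRTG was higher in neural progenitors (339.7 CPM at E16, 447 at E18 and 30.2 at E21) than in neurons (283, 328 and 20.02 CPM) at each shared stage, and it measured 6.37 ± 7.36 (SD, n = 8) in the erythroid gate. At E21, though, the endothelial (44.05 CPM) and sclerotome gates (33.6 CPM) were above neural progenitors. At E28 PRTG was highest in the endothelial gate (37.8 CPM, against 1.20 in neurons). In the macrophage gate, which had enough cells only at E28 (32 in ZZ and 31 in DZ), no PRTG UMI was found, and a floor of 3 counts is 12.8 CPM in ZZ and 18.5 CPM in DZ.

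LIN28B at E18, averaged over ZZ and DZ, ranged from 173.8 CPM in the neural crest and glia gate, 165.8 in neurons and 164 in neural progenitors, through 136 in the dermomyotome, to 88.5 in the lateral plate, 87.7 in the fibroblast and 16.7 in the erythroid gate. The cardiac gate, with 2 UMIs in ZZ alone, was at 20.2. At E28 it was at 34.2 (ZZ) and 55.6 CPM (DZ) in the macrophage gate, from 17 UMIs, at 25.1 and 35.2 in the endothelial gate, from 42 UMIs, and at 46.1 and 14.3 in the dermomyotome gate, from 10 UMIs, against 9.88 and 11.8 in whole libraries. In the neuron gate GDF11 was measured in every library, with 19.2, 30.6, 93.1 and 53.6 CPM in ZZ by stage and 21.3, 36.1, 88.5 and 45.4 CPM in DZ. Both E21 libraries stood above the rest. GDF11 in the presomitic gate was 81.0 CPM in E16-ZZ, 38.5 in E16-DZ and 9.97 in E18-ZZ, from 53 UMIs. LIN28A at E16 measured 26.9 (ZZ) and 18.5 CPM (DZ) in the neuron gate and 22.7 and 16.3 CPM in the presomitic gate, and of its 11 UMIs at E21, 8 were in the 2955 cells of the neuron gate.

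**Figure D3:**
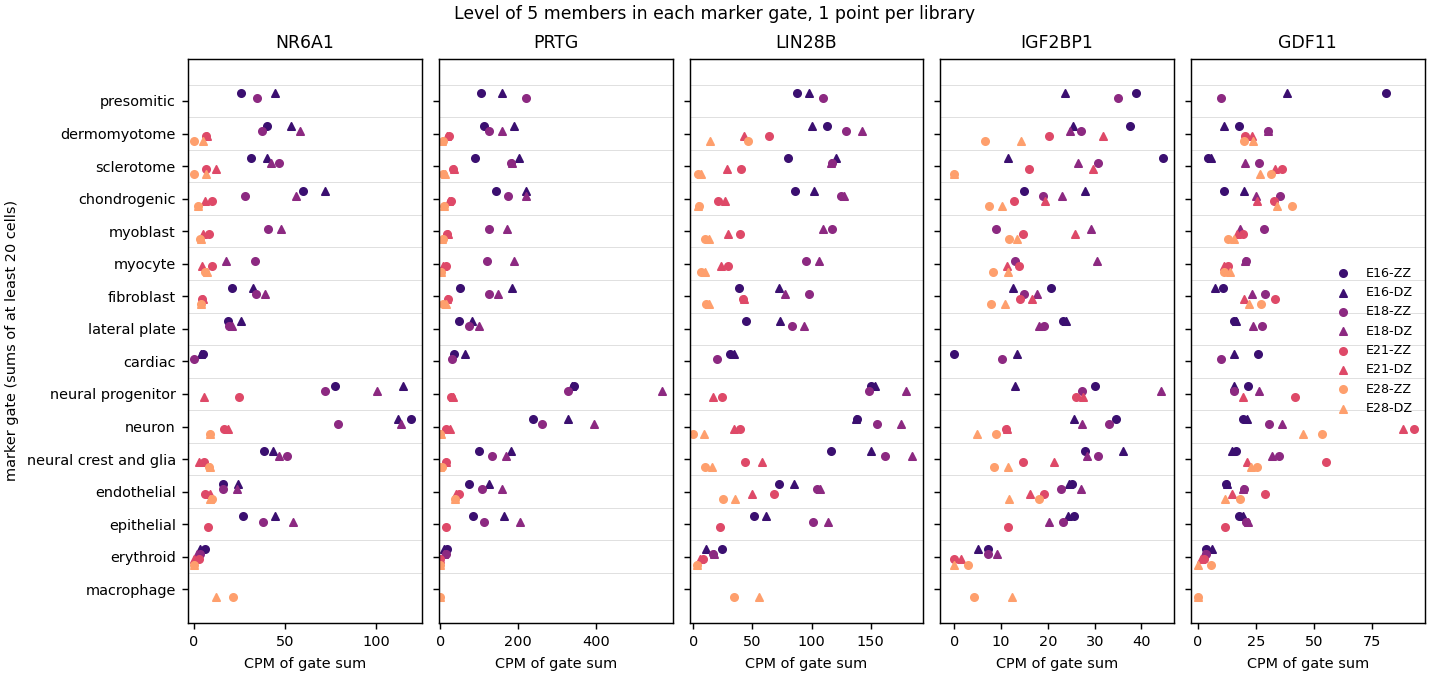
Level of 5 members in CPM of each gate's summed UMIs, 1 point per library with at least 20 cells (colour for stage, circles ZZ, triangles DZ). NR6A1 and PRTG are highest in early neural progenitor and neuron sums, GDF11 in the neuron sums of E21 (88.5 and 93.1 CPM), and all 5 are low in the erythroid gate.

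Each gate was tested against the dermomyotome gate, which gives rise to skeletal muscle and dermis, in edgeR fits with the library as block. In neural progenitors, PRTG was higher by 1.18 on the log2 scale (SE 0.16, adjusted p = 4.79e-05) and NR6A1 by 0.85 (SE 0.17, adjusted p = 0.00185), 2 of 5 members tested, beside 18.2% of genes. In neurons, NR6A1 was higher by 1.12 (SE 0.15, adjusted p = 0.000182), GDF11 by 0.93 (SE 0.27, adjusted p = 0.0189) and PRTG by 0.67 (SE 0.22, adjusted p = 0.0349), 3 of 6, beside 31.2% of genes. For PRTG this held at E16 (283 CPM in neurons and 150.4 in the dermomyotome) and E18 (328 and 141.8), but not at E21 (20.02 and 20.4) or E28 (1.20 and 5.67). Without E21-DZ only NR6A1 passed in neurons. PRTG missed the threshold there without any single one of 5 libraries (those of E16 and E18, and E21-DZ), and GDF11 without E21-ZZ or E21-DZ.

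In the lateral plate gate, measured only at E16 and E18, NR6A1 was lower (-1.14, SE 0.13, adjusted p = 0.000237), as were PRTG (-0.93, SE 0.11, adjusted p = 0.000284) and LIN28B (-0.71, SE 0.13, adjusted p = 0.00376), 3 of 6, beside 22.2% of genes. Without E16-ZZ these 3 passed too, with NR6A1 at -1.12. In the cardiac gate the same 3 members passed, 3 of 5, beside 22.6%, and in the erythroid gate 5 of 5, beside 56.1%, all lower. Both gates held few UMIs of the members: NR6A1 had 3 in the cardiac and 20 in the erythroid gate, and LIN28B had 26 and 95. They were tested there because the dermomyotome sums were high, so these counts are descriptions and no p is given.

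None of 6 passed in the sclerotome (6.8% of genes) or the presomitic gate (3.36%), and none of 5 in the myoblast (4.95%) or myocyte gate (35.7%). In the presomitic gate GDF11 was at 1.22 (SE 0.43, adjusted p = 0.199). Without E18-ZZ it was at 1.99, but that fit held only the 2 E16 libraries, so no p is given. None of 6 passed in the neural crest and glia gate (17.8%). In the fibroblast gate LIN28B (-0.61, SE 0.16, adjusted p = 0.0189) and IGF2BP1 (-0.63, SE 0.14, adjusted p = 0.0103) were lower, 2 of 6, beside 10.8%. With 3 markers required neither passed there (adjusted p = 0.0608 and 0.0696), and LIN28B was lost without E18-DZ and IGF2BP1 without E18-ZZ. Of 5 members tested in the endothelial gate, NR6A1 alone was lower (-0.94, SE 0.22, adjusted p = 0.00376; 43.7% of genes). It was lower there at E16 (20.3 CPM against 46.6) and E18 (19.9 against 47.8), but not at E21 (7.40 against 7.03) or E28 (9.27 against 2.38). LIN28B was lower in the epithelial gate (-0.63, SE 0.14, adjusted p = 0.00603), 1 of 6, beside 21.8%. PRTG was higher in the chondrogenic gate (0.34, SE 0.096, adjusted p = 0.0387), 1 of 6, beside 7.2%, and missed the threshold without any one of E16-ZZ, E18-ZZ, E18-DZ, E21-ZZ or E21-DZ.

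The late decline was then tested within each of the 8 gates with enough early and late libraries. The fibroblast gate held 213 late UMIs of NR6A1, at least 30 in each late library, and 672 of PRTG. There NR6A1 was at 21.2, 34.0, 4.56 and 3.86 CPM in ZZ by stage and at 32.6, 39.0, 5.07 and 4.04 CPM in DZ, a difference of -3.01 on the log2 scale (SE 0.22, adjusted p = 0.000218). Early and late libraries did not overlap. PRTG differed there by -3.17 (SE 0.34, adjusted p = 0.000612). In neurons, with 228 and 230 late UMIs, NR6A1 differed by -3.001 (SE 0.29, adjusted p = 4.14e-05) and PRTG by -4.59 (SE 0.49, adjusted p = 6.68e-05). Of these UMIs, E21 held 214 and 227 and E28 only 14 and 3, with PRTG at 0 CPM in E28-ZZ. The late neuron values thus rest mainly on E21. In the chondrogenic gate, with 74 and 248 late UMIs, they differed by -3.33 (SE 0.47, adjusted p = 0.00115) and -3.43 (SE 0.35, adjusted p = 0.000214). At a mitochondrial limit of 5%, and without both E16 libraries, NR6A1 and PRTG did not both pass in the chondrogenic gate. In the other 4 gates NR6A1 had 13 to 25 late UMIs and met the filter on low counts mainly through the early libraries, as did PRTG in the dermomyotome (37 late UMIs) and the neural crest and glia gate (47), so their values there are descriptions. NR6A1 in the dermomyotome gate was at 40.0, 37.2, 6.72 and 0 CPM in ZZ by stage and at 53.3, 58.4, 7.33 and 4.76 CPM in DZ. The fitted differences were smallest in the endothelial gate, where PRTG was 73.6 to 158 CPM early and 36.7 to 47.2 late. Without E16-ZZ the late calls within gates held, except that of IGF2BP1 in the endothelial gate (adjusted p = 0.0623). Whether the change differed between gates was not tested.

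In the gates where LIN28B passed it had 77 to 483 late UMIs, of which E28 held 3 (sclerotome) to 42 (endothelial). It was lower late in 6 of 8 gates, from -2.93 (SE 0.53) in the chondrogenic to -1.13 (SE 0.25) in the endothelial gate. It did not pass in fibroblasts (-1.55, SE 0.49, adjusted p = 0.0528) or erythroid cells (-1.12, SE 0.47, adjusted p = 0.214). With library sizes only, chosen after seeing the data, it passed in erythroid cells. In the fibroblast gate 3 members passed, and 3 to 4 with 1 library left out. LIN28A met the filter in 4 gates through their early libraries, which fixes its direction there, so only its counts are given. It had 19 UMIs early and 0 late in the chondrogenic, 30 and 1 in the fibroblast, 65 and 1 in the neural crest and glia, and 46 and 8 in the neuron gate. IGF2BP1 was lower in 3 of 7 gates, most in neurons (-1.79, SE 0.31, adjusted p = 0.00114). Its call in the endothelial gate was lost without any single library but E18-ZZ. In the dermomyotome gate it differed by -0.39 (SE 0.33, adjusted p = 0.47).

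GDF11 was the exception in direction. It was higher late in neurons (1.19, SE 0.30, adjusted p = 0.0102) and did not pass in the other 6 gates, where it lay between -0.15 and 0.74. The neuron call was lost without both E16 libraries (0.97, adjusted p = 0.115) and with 3 markers required (0.68, adjusted p = 0.267).

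By gate, the members that passed were 3 of 5 in the dermomyotome (13.4% of genes), 3 of 5 in the sclerotome (15.4%), 4 of 6 in the chondrogenic (18%) and 3 of 6 in the fibroblast gate (19.7%). They were 6 of 6 in the neuron (35.4%), 5 of 6 in the neural crest and glia (28.1%) and 4 of 5 in the endothelial gate (25.7%), and 0 of 1 in the erythroid gate (1.81%). These counts hold members that met the filter on low counts through the early libraries, LIN28A among them, and are descriptions.

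**Figure D4:**
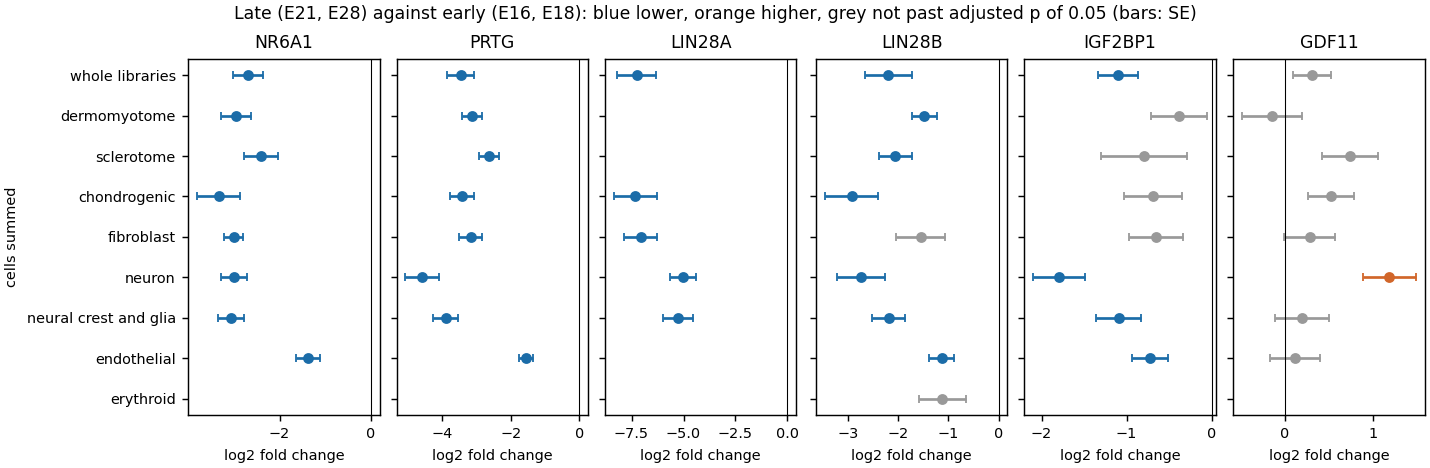
Fitted log2 fold change of late (E21, E28) against early (E16, E18) libraries for 6 members, in whole libraries and in each gate (points; bars are SE; horizontal axes differ between panels). Blue points, lower past an adjusted p of 0.05, fill the NR6A1 and PRTG panels from -4.59 to -1.37, and GDF11 has 1 orange point, higher, in neurons at 1.19.

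Shares of cells with a UMI were computed for the LIN28 genes. Thinned to 2000 UMIs per cell, 17.2% ± 3.46 (SD, n = 4) of early cells and 4.33% ± 2.77 (n = 4) of late cells had a LIN28B UMI. Without thinning, the shares were 38.0% and 9.29%, at median depths of 4652 to 6160 and 3405 to 4519 UMIs. Erythroid cells, given for comparison, had 2.67% ± 1.03 (n = 4) early and 0.463% ± 0.926 (n = 4) late after thinning. The late share came from 191 cells and ranged from 0 to 1.85% by library. Median depths of erythroid cells were 4226 to 13200 UMIs, against 3542 to 6355 UMIs in whole libraries. Whole-library shares stood above the erythroid ones in both periods. Whether erythroid cells lack LIN28B was not tested, so these shares do not give a background. For LIN28A, thinned shares were 1.67% ± 0.686 (n = 4) early and 0.0104% ± 0.0143 (n = 4) late. Without thinning they were 4.95% and 0.0270%, beside 0.908% in early erythroid cells.

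Genes listed by pathway were compared between late and early whole libraries in the same fit, in which 34.4% of all genes passed and the median log2 fold change was 0.016. Among 21 partners and targets of LIN28 and let-7, 20 were tested, of which 10 were lower and 1 higher, with a median of -0.46. The higher one was TUT7, which tails let-7 precursors (0.64, adjusted p = 0.00723; named after its value was seen). TRIM71, a let-7 target that acts on mRNA, was at 0.955 to 1.79 CPM early and 0.0697 to 0.501 late, and it met the filter on low counts mainly through the early libraries. ARID3B (-1.92, adjusted p = 0.00863) and ARID3A (-1.81, adjusted p = 0.00166), DNA-binding proteins of the ARID family, followed. Their early and late libraries did not overlap: ARID3A was at 61.6 to 72.5 CPM and then at 15.8 to 28.8.

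Of 20 genes of GDF11 processing, reception and signalling, 19 were tested, 4 were higher and 2 lower, with a median of 0.019. MSTN, the closest relative of GDF11 and an inhibitor of muscle growth, was at most at 0.0869 CPM in the early libraries and at 12.9 (ZZ) and 14.6 (DZ) at E21 and 24.7 and 18.9 at E28. LTBP3, which binds latent TGF-beta ligands, was at 1.28 to 1.76 CPM early and 11.6 to 53.4 late (adjusted p = 0.00341). WFIKKN2, a secreted antagonist of GDF11 and MSTN, was at most at 0.0753 CPM early and at 0.613 to 4.60 late. MSTN and WFIKKN2 met the filter on low counts through the late libraries alone, so their calls are descriptions. The other 3 that passed, named after their values were seen, were the receptor ACVR2A (1.37) and, lower, the antagonist WFIKKN1 (-3.60) and the protease FURIN (-0.96).

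Of 23 axial elongation and trunk genes, 20 were measured and 14 tested, with 3 lower and 1 higher and a median of -0.33. The higher one was the retinoic acid receptor RARG (1.06, adjusted p = 0.0104), named after its value was seen. The 3 lower ones were the caudal homeobox genes. CDX2 was at 9.86 (ZZ) and 10.1 CPM (DZ) at E16, at 3.51 and 1.44 at E18, and at most at 0.0218 afterwards. CDX4 was at 0.454 to 19.8 CPM early and 0.142 to 0.363 late, and CDX1 at 2.13 to 5.65 and 0.109 to 0.340. The 3 met the filter on low counts through the early libraries, so their calls are descriptions. TBXT, MSGN1 and HES7, which mark the tail end of the axis, were too low to be tested.

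Among posterior HOX genes (paralogues 9 to 13), 15 of 16 were measured and 11 tested, with only HOXC9 higher (2.01, SE 0.64, adjusted p = 0.0424) and a median of -1.26. The HOX genes also differed between libraries of the same stage. HOXA10, chosen after its values were seen, was at 46.3, 1.77, 2.81 and 79.0 CPM in ZZ by stage and at 41.4, 0.0379, 25.1 and 1.71 CPM in DZ. HOXA11, HOXA13 and HOXD13, chosen likewise, were at 6.97 to 31.7 CPM in the E16 libraries and at most at 0.243 at E18. Of the late libraries E21-DZ was highest for each, at 2.18 to 2.94 CPM. The axial level that each dissection took in is not known from these counts, and its part in the members' values was not tested. Of the 4 relatives of PRTG, 3 were tested, and IGDCC4 was lower (-1.60, adjusted p = 0.0441), with 129.7 to 299 CPM early and 31.4 to 154.7 late, which overlap. The median of the 3 was 0.34.

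The genes most like each member were taken by the Pearson correlation of log2(CPM + 1) over 83 sums of a library and gate with at least 50 cells, among 9858 genes. These sums share libraries and depth, so the values are descriptions. The nearest gene to PRTG was LIN28B (r = 0.903), then NR6A1 (r = 0.846) and PDK1 (r = 0.843). For LIN28B, PRTG was followed by SLC25A13 (r = 0.817) and HMGA1 (r = 0.816). For NR6A1 an unnamed gene, ENSSSCG00000025483 (r = 0.847), came first, ahead of PRTG (r = 0.846) and VARS (r = 0.844). IGF2BP1 was nearest to PAICS (r = 0.803), SELENOH (r = 0.771) and NT5DC2 (r = 0.763). GDF11 went with other genes, PLPPR3 (r = 0.887), NME7 (r = 0.880) and PTOV1 (r = 0.879), and its r with LIN28B was 0.193 and with NR6A1 0.338.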

How the data were processed

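The authors prepared 10x Chromium 3′ libraries and deposited raw UMI counts per gene and barcode from Cell Ranger (3.1.0 for E16 and 3.0.2 for the other stages, per the file headers), aligned to Sscrofa11.1. Barcodes with at least 200 genes, at most 30000 UMIs and at most 10% UMIs of the 13 mitochondrial genes were kept. The 8247 barcodes with the highest Scrublet scores (scanpy 1.11.5, at a rate rising with the number of barcodes) were removed as doublets. UMIs were summed per library and per marker gate. Sums were tested with edgeR 4.0.16 (TMM, filterByExpr, quasi-likelihood, Benjamini-Hochberg at 0.05) in R 4.3.3. The fits were also run on simulated counts, drawn independently at the estimated dispersions. Such counts do not bear on the spread between pools. Each stage and breed is 1 pool of embryos, so the spread between like pools was not measured. The error is what remains after stage and breed in the stage fits, and after library and gate between gates. In fits of late against early libraries it is what remains after period and breed, which includes change between the stages of a period. DESeq2 1.42.0, other filters, other gates and left-out libraries were alternatives. RefSeq sequences were read with pysam 0.24.0, and 6 of 7 members had an annotated 3′ UTR. All members are named, and from each list up to 3 genes with the largest change past the threshold between late and early libraries. The members and lists were chosen with earlier results of these data known.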

Additional observations from a re-analysis of the deposited data

How the results depend on the processing

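Of 64 called member values, none changed direction over 923 refits. Of these refits, 849 kept the call and 74 lost it, 42 of them with 1 library left out, and 45 values kept their call throughout. The 64 include values that met the filter on low counts through 1 group. That largely fixes their direction, so for them the tally is no test. Counts of members that passed moved by over 1.5 times as follows. From E16 to E18 the count was 0 with no low-count filter, at a mitochondrial limit of 5% and with stage alone, and 0 to 1 with 1 library left out. From E21 to E28 it was 2 at 5% and 2 to 4 with 1 library left out. Late against early it was 3 in whole libraries without both E16 libraries, 1 in the chondrogenic gate at 5% and 1 without the E16 libraries, 3 in the neural crest and glia gate at 5%, 2 in the endothelial gate at 5% and 2 without the E28 libraries, and 1 in the erythroid gate with library sizes only. Against the dermomyotome it was 1 in the sclerotome with at least 50 cells per sum, 0 in the chondrogenic gate with 3 markers or 50 cells, and 0 in the fibroblast gate with 3 markers. With 1 library left out it was 0 to 1 in the presomitic, 0 to 1 in the chondrogenic, 1 to 2 in the fibroblast and 1 to 3 in the neuron gate. The cause of these shifts was not tested. A limit of 5% removes many cells, and fits without libraries hold fewer samples.

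The values that changed sign were all uncalled. LIN28A from E21 to E28, uncalled, passed by DESeq2. GDF11 in the presomitic gate, uncalled, was at 1.99 without E18-ZZ, in a fit on the 2 E16 libraries alone. NR6A1 from E16 to E18 was -0.0084 with RLE size factors, -0.0082 with DESeq2 and -0.13 at 5%, and -0.19 to 0.26 with 1 library left out. IGF2BP1 there was 0.0082 with library sizes only. Between breeds, leaving out 1 library gave -0.0040 to 0.32 for NR6A1 and -0.29 to 0.43 for LIN28A. GDF11 late against early was -0.40 to 0.097 in the dermomyotome, -0.22 to 0.56 in the neural crest and glia and -0.15 to 0.25 in the endothelial gate with 1 library left out. It was 0.041 in the dermomyotome with 3 markers, -0.54 in the neural crest and glia gate at 5%, and without the E16 libraries -0.10 in fibroblasts, -0.12 in neural crest and glia and -0.13 in endothelial cells. Library sizes only, chosen after seeing the data, moved the median log2 fold change of all genes late against early to 0.21 and the higher share of calls from 48.5% to 66.1%. A further 2 alternatives were chosen in the same way, a breed by late term and gated cells only, and with gated cells only 5 members passed. Without thinning, shares of cells with a LIN28B UMI were 38.0% early and 9.29% late. No replicate numbers pair the libraries, and DZ and ZZ were compared with stage as a block in the fit reported.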
